A study of Caenorhabditis elegans with 2 samples.

Results

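Genes of the Wnt pathway were examined for binding of ZTF-11 in Caenorhabditis elegans larvae. ZTF-11 belongs to the MYT1 zinc-finger proteins and has a role in neurogenesis. The set was 32 genes taken by name for their known roles, among the 19973 coding genes of the nuclear genome, and all 32 names were found in the annotation of WBcel235 (ce11). Binding was measured by chromatin immunoprecipitation and sequencing (ChIP-seq) in 2 biological replicates of 1 group, with no second condition. Both came from strain OP511, genotype unc-119(tm4063) III; wgIs511, in which a transgene makes ZTF-11 with GFP and FLAG at its C-terminal end. Hermaphrodite L1 larvae were collected whole, 6 hours after a synchronizing L1 arrest by starvation, so binding in different cells is summed. The immunoprecipitation used an antibody to GFP per the description, while another label gives the antibody as ztf-11. Peaks were taken from the authors' thresholded list, filtered by irreproducible discovery rate (IDR), which holds 1875 peaks. All 1875 had the same position, signal and rank in the authors' list called on both replicates together, the pooled list, which holds 30000 regions with background among them. Ranks are by the peak caller's signal within a list, with 1 the strongest. Read depth is unknown from these lists.

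Wnt ligands are secreted lipid-modified proteins that bind Frizzled, Ryk and Ror receptors. Dishevelled proteins relay the signal to a destruction complex of Axin, APC and kinases that marks beta-catenin for degradation, and beta-catenin acts with a TCF factor in the nucleus. In C. elegans the beta-catenins WRM-1 and SYS-1, the kinase LIT-1 and the TCF factor POP-1 make the daughters of many divisions unequal along the body axis, among them seam cells, while BAR-1 acts in the canonical branch and HMP-2 mainly at cell junctions. Wnt ligands also steer migrating neuroblasts and axons in the first larval stage.

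By the rule used here, a summit of the IDR list lies within 1000 bp of the annotated 5' end of the gene or inside it. It gave 12 summits at 10 of the 32 genes. The windows of 101 bases centred on 8 of these summits are shown, from the RefSeq copy of WBcel235. They were chosen as the 3 strongest, the 3 that hold CTGCGTCT and the 2 that hold repeated sequence. Each is 5' to 3' on the strand of its gene, and capitals mark matches to 5 motifs described further on.
mom-1 intron, chrX:6296510-6296610, plus strand: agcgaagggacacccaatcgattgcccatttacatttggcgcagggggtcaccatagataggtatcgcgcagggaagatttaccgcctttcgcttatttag
wrm-1, chrIII:5722022-5722122, plus strand: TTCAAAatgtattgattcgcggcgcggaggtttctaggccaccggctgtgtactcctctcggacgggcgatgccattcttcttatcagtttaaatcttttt
mig-5, chrII:8185146-8185246, minus strand: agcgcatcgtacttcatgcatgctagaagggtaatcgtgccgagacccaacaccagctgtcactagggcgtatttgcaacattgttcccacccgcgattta
lit-1, chrIII:13713057-13713157, plus strand: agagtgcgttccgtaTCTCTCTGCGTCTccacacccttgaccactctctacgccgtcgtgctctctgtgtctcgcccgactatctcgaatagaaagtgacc
dsh-2, chrII:5081341-5081441, minus strand: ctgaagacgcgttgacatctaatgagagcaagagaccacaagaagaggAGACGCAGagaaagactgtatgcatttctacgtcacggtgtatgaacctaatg
cam-1, chrII:9308781-9308881, minus strand: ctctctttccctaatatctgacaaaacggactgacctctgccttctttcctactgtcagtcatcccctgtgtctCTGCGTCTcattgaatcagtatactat
lin-18, chrX:3957813-3957913, plus strand: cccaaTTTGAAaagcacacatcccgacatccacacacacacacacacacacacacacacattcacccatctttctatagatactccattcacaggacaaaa
mom-1 upstream, chrX:6292304-6292404, plus strand: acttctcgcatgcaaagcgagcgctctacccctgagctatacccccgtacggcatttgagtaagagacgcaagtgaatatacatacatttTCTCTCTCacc

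ZTF-11 summits were found at 10 of 32 Wnt genes (31.3%, exact Clopper-Pearson 95% interval 16.1 to 50.01, which covers counting error only). Over all coding genes the share was 9.34%, or 1866 genes. Within 1000 bp of the 5' end alone there were 8 members (25%, 11.5 to 43.4) against a background of 8.09%. The other 2, lit-1 and cam-1, had a summit only inside the gene. No test of the list was made, since its members were chosen with earlier results of these data known.

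Wnt genes are long, and the longest genes met the rule most often. Coding genes were put in 4 groups of about equal number by length. The median length of the 32 genes was 4778 bp against 2027 bp over all coding genes, and 21 of the 32 were in the longest group, from 3637 bp upwards. In that group 14.9% of coding genes met the rule, and 7 of the 21 members did. In the group from 2028 to 3636 bp 8.49% of coding genes did, and 3 of 11 members. The shorter groups, with shares of 8.24% and 5.69%, held no member. The members with and without a summit had like median lengths, 4778 and 4873.5 bp.

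**Figure D1:**
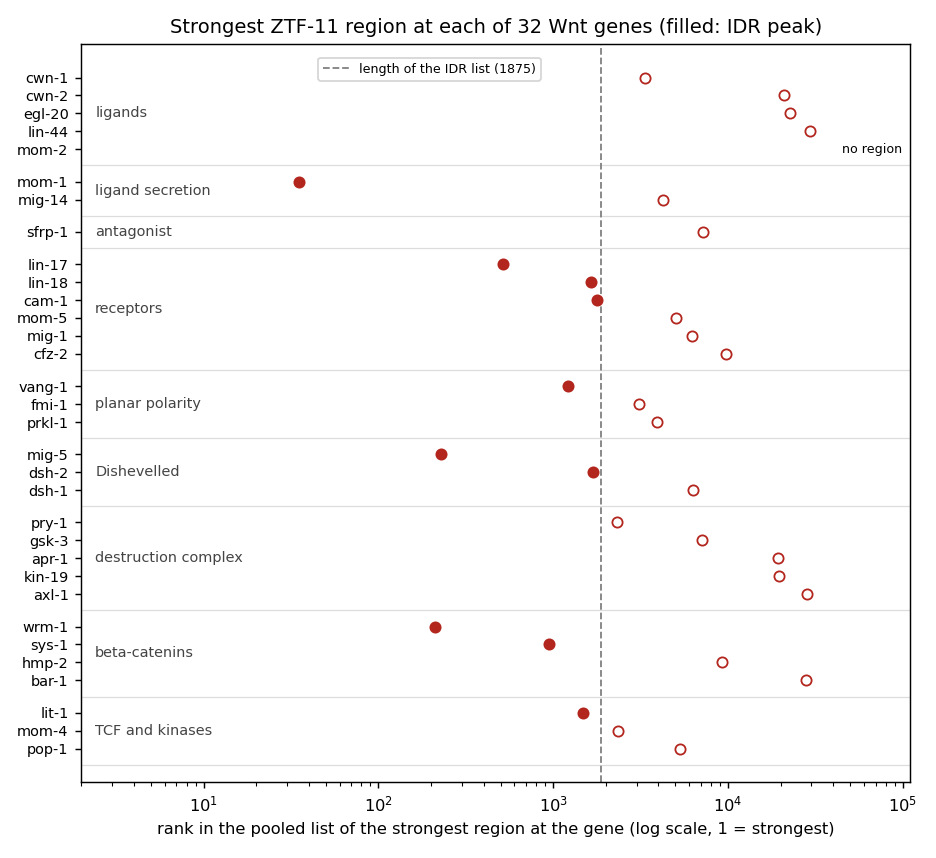
Rank in the pooled list (log axis, 1 is the strongest) of the strongest region within 1000 bp of the 5' end or inside each of the 32 genes, grouped by role. Filled points are IDR peaks and lie left of the dashed line at rank 1875. All ligands and destruction complex genes lie right of it or have no region, as do most coding genes, of which 9.34% have an IDR summit by this rule.

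The secretion gene mom-1 had the strongest summit of all members, and the other secretion gene, mig-14, had none. None of the 5 ligand genes, mom-2, lin-44, egl-20, cwn-1 and cwn-2, had an IDR summit by the rule. With a share of 9.34% over all coding genes, 0 of 5 does not set the ligands apart. The strongest pooled region at cwn-1 ranked 3365 (signal 46.5), 539 bp upstream of the 5' end, with ranks 2474 and 10417 in replicates 1 and 2. At cwn-2 the strongest region ranked 20831, at egl-20 22784 and at lin-44 29322, the last with no region within 100 bp in either replicate. The window of mom-2 held no region of the pooled list. The IDR summits nearest to the 5' ends of the 5 ligand genes lay 3325 to 22513 bp away.

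Mom-1 (WBGene00003394, chrX:6293112-6298305, plus strand) is the Porcupine homolog, an enzyme that attaches the lipid to Wnt ligands, and it carried a pair of summits. The stronger, at chrX:6296442-6296649, had a signal of 545.7 in the pooled list and ranked 35 of 1875. Its signal was 323.1 in replicate 1 and 220.9 in replicate 2, ranks 44 and 19, and the replicate summits lay 10 and 7 bp from the pooled one. It was in intron 7, the last of the 7 introns, 3448 bp downstream of the 5' end. The gene has 1 annotated transcript, so no other mom-1 start lies nearer. The nearest coding 5' end was that of cest-16, 3382 bp away, slightly closer than that of mom-1. Of the 100 strongest IDR peaks 24 lay beyond 1000 bp of any coding 5' end, and 10 lay at least as far from one as this summit. The window shown holds none of the 5 motifs.

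The weaker mom-1 summit, at chrX:6292172-6292535, was 758 bp upstream of the 5' end and ranked 1639 (signal 72.8). It lay 5 bp from the 5' end of a tRNA gene (WBGene00023133) and 622 bp from that of lev-9. Its signals of 38.8 and 32.4 gave ranks 2181 and 1338 in replicates 1 and 2. Of the 71 words of 31 bases in its window 54 were unique in the genome, with up to 10 copies of a word. What share of the signal at this summit comes from reads of other copies was not tested. Mig-14, the Wntless homolog that carries Wnt to the cell surface, had no summit, and its strongest pooled region, in coding sequence, ranked 4252. Sfrp-1, a secreted antagonist of Wnt, had none either, with a strongest region at rank 7229.

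Of the 6 receptor genes lin-17, lin-18 and cam-1 had summits. By the same rule 9.34% of all coding genes did, and 14.9% of those in the longest group. Counts in classes of so few genes were not tested, here and below. Lin-17 (WBGene00003006, chrI:2706883-2717549, plus strand), a Frizzled receptor, had a pair. The intronic one ranked 514 (signal 161.7, chromosome I, 2710515 to 2710878), 3814 bp downstream of the outermost 5' end and 744 bp downstream of the nearest start among the 5 annotated transcripts. It ranked 532 in replicate 1 (signal 101.4) and 515 in replicate 2 (60.4). The upstream one, 604 bp from the 5' end, ranked 1132 (signal 93.8), with ranks 1035 (signal 62.97) and 1425 (signal 31.2). Both lin-17 summits were therefore within the 1875 strongest regions of each replicate.

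The summits of the other receptor genes were close to the end of the IDR list. Lin-18 (WBGene00003007, chrX:3958552-3961907, plus strand), the Ryk receptor, had a summit 689 bp upstream, at chrX:3957681-3958044, with rank 1657 (signal 72.2), 2671 in replicate 1 (signal 34.8) and 1234 in replicate 2 (signal 34.1). Its window, shown above, holds a CA repeat of 30 bases, and 66 of its 71 words of 31 bases were unique, with up to 24 copies of a word. The part of this repeat in the signal was not tested. Cam-1 (WBGene00000289, chrII:9295915-9310304, minus strand), the Ror receptor tyrosine kinase, had an intronic summit 1473 bp into the gene, at chrII:9308649-9309012, with rank 1771 (signal 68.8). It ranked 2381 in replicate 1 (signal 37.1) and 887 in replicate 2 (signal 41.7), and the replicate 1 summit was displaced by 83 bp. The lin-18 and cam-1 summits were outside the 1875 strongest regions of replicate 1.

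No summit met the rule at the Frizzled genes mom-5, mig-1 and cfz-2, whose strongest pooled regions ranked 5043, 6222 and 9736. An IDR peak of rank 1287 lay 2610 bp upstream of mig-1 and had no nearer coding 5' end. Around cfz-2 the nearest IDR summit was 259235 bp away. The genes of the planar polarity branch, which orients cells and axons, had a summit at 1 of 3, beside 9.34% of all coding genes. Vang-1 (WBGene00015171, chrX:2885858-2890681, plus strand), the Van Gogh homolog, had it 319 bp upstream, at chrX:2885357-2885720, with rank 1222 (signal 87.8), 1186 in replicate 1 (signal 57.9) and 1684 in replicate 2 (signal 28.3). The summit was in exons of the non-coding RNA genes F53B3.10 and F53B3.12, 17 and 39 bp from their 5' ends. Fmi-1, the Flamingo cadherin, and prkl-1, a Prickle homolog, had strongest regions at ranks 3084 and 3948, both intronic. The fmi-1 region ranked 1531 in replicate 2 and 7958 in replicate 1.

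Among the 3 Dishevelled genes, mig-5 and dsh-2 had summits at the start of the gene and dsh-1 had none. Over all coding genes the share by the rule was 9.34%. The mig-5 gene is WBGene00003241 at chrII:8182323-8185023 on the minus strand. The mig-5 peak, at chrII:8185130-8185283, ranked 228 (signal 269.9), with a signal of 136.8 in replicate 1 (rank 335) and 135.0 in replicate 2 (rank 111). Its summit was 173 bp upstream of mig-5 and 247 bp upstream of cct-1, a chaperonin subunit gene on the other strand, so the peak cannot be given to either gene by position. The dsh-2 gene is WBGene00001102 at chrII:5078233-5081174 on the minus strand. The dsh-2 peak, at chrII:5081209-5081572, had its summit 217 bp upstream and no other coding 5' end within 1000 bp. It ranked 1699 (signal 71.0), 1641 in replicate 1 (signal 46.6) and 1791 in replicate 2 (signal 27.4), near the end of each list of 1875. At dsh-1 the strongest pooled region, in coding sequence 10341 bp downstream of the 5' end, ranked 6354.

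None of the 5 destruction complex genes had a summit. The share was 9.34% over all coding genes and 14.9% in the longest group, so 0 of 5 does not set these genes apart. The Axin gene pry-1 came nearest, with a pooled region 443 bp upstream at rank 2307 (signal 57.1), which ranked 1870 in replicate 1 (signal 42.3) and 5777 in replicate 2 (signal 17.3). It would enter a list of the 1875 strongest regions from replicate 1 alone and not one from replicate 2. The strongest regions of the others ranked 7147 at the kinase gene gsk-3, 19304 at the APC-related apr-1, 19551 at the casein kinase gene kin-19 and 28425 at axl-1, a second Axin gene. A strong IDR peak, of rank 191, lay 3262 bp upstream of gsk-3, and its summit was 50 bp from the 5' end of Y18D10A.4. One of rank 818 lay 2448 bp upstream of axl-1 and 137 bp from the 5' end of sec-12.

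Of the 4 beta-catenin genes wrm-1 and sys-1 had a summit upstream, and bar-1 and hmp-2 did not. The share by the rule was 9.34% over all coding genes. The wrm-1 gene is WBGene00006943 at chrIII:5722850-5727115 on the plus strand. The wrm-1 peak, at chrIII:5721990-5722155, ranked 211 (signal 279.6), with a signal of 202.4 in replicate 1 (rank 163) and 82.1 in replicate 2 (rank 323). Its summit was 778 bp upstream of wrm-1, the farthest from a 5' end of the 8 within the limit, and the next coding 5' end, that of egg-1, was 6108 bp away. The sys-1 gene is WBGene00006379 at chrI:9980063-9984794 on the minus strand. The sys-1 peak, on chromosome I from 9984922 to 9985285, ranked 941 (signal 106.7), 992 in replicate 1 (signal 65.0) and 1329 in replicate 2 (signal 32.6). It lay 310 bp upstream of sys-1.

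At 2 further genes, pop-1 and the beta-catenin gene hmp-2, an IDR summit lay just beyond the limit of 1000 bp. An IDR summit of rank 709 (signal 130.5) lay 1250 bp upstream of pop-1, the TCF gene, with ranks 769 and 748 in replicates 1 and 2. It fell in exons of the non-coding RNA genes W10C8.8 and W10C8.12, and apart from pop-1 the nearest coding 5' end was 9427 bp away. At hmp-2 an IDR summit of rank 464 (signal 171.8) lay 1393 bp upstream, with ranks 549 and 390, but it was 213 bp from the 5' end of K05C4.7. These are the members just outside the limit of 1000 bp, and wrm-1, at 778 bp, and mom-1, at 758 bp, are those just inside it. At bar-1 the strongest pooled region ranked 28083 and had no region within 100 bp in replicate 2.

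Of the 2 kinase genes of this branch lit-1 had a summit, beside 9.34% of all coding genes and 14.9% in the longest group. Lit-1 (WBGene00003048, chrIII:13701991-13724404, plus strand), the Nemo-like kinase that acts with WRM-1 on POP-1, had an intronic summit 11116 bp from the outermost 5' end, at chrIII:13712925-13713288. The gene has 7 annotated transcripts, and the summit was 938 bp upstream of the nearest of their starts. It ranked 1489 (signal 77.2), 1941 in replicate 1 (signal 41.5) and 968 in replicate 2 (signal 39.7). Mom-4, a kinase of the TAK1 family upstream of LIT-1, had no IDR summit, and its strongest pooled region, intronic and 989 bp past the 5' end, ranked 2344 (signal 56.6), 4794 in replicate 1 and 2133 in replicate 2.

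Over the 22 members with no IDR summit, 21 had a pooled region, with ranks from 2307 to 29322 and a median of 7147. Of the 18107 coding genes with no summit 11020 had one, with a median rank of 12253.5. The 2 sets are not alike in length, and a longer gene gives a wider window in which to find a region. The median length of the 22 members was 4873.5 bp, against 2027 bp over all coding genes. These counts and ranks were not compared at like gene length. The strongest region was matched within 100 bp in both replicate lists at 9 members, in 1 list at 10 and in neither at 2. It lay within 1000 bp of the 5' end at 7 and farther inside the gene at 14.

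**Figure D2:**
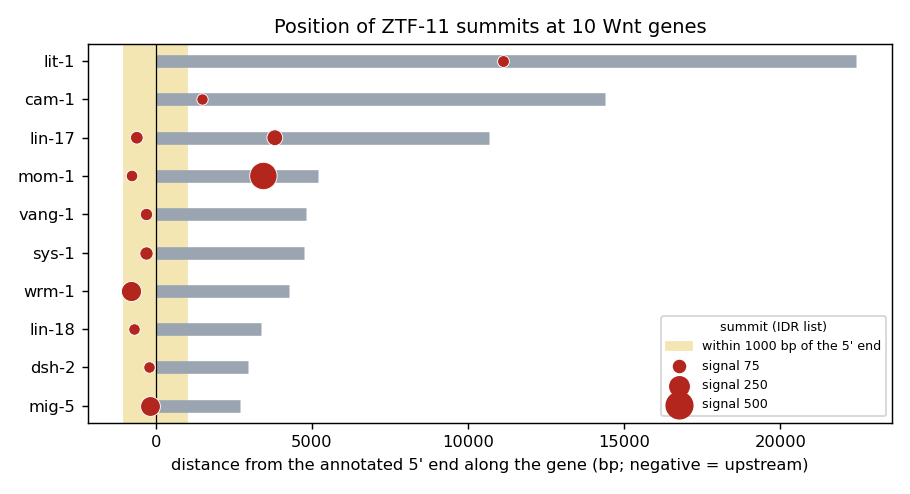
Summits of the IDR list at 10 Wnt genes by distance from the annotated 5' end (bp, negative upstream), with the gene drawn as a grey bar to scale and the shaded band marking 1000 bp either side. Point area grows with the pooled signal; 8 summits lie upstream of the 5' end and 4 inside the gene, of which the mom-1 one has the highest signal, 545.7.

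Every one of the 8 summits within 1000 bp of a member's 5' end was upstream of it, which is close to the 90.0% over the 1615 coding genes with such a summit. Their distances ran from 173 bp at mig-5 to 778 bp at wrm-1, with a median of 461.5 bp against 245 bp over those coding genes. The 4 other summits were intronic. Of the 12 member summits 4 were in the stronger part of the IDR list, ranks 1 to 937, at mom-1, wrm-1, mig-5 and lin-17. The median signal was 90.8 against 106.8 over all IDR peaks. The peaks of mom-1 in the intron, wrm-1 and mig-5, the 3 with the highest signal, were 154 to 208 bp wide, and the other 9 had the list's usual width of 364 bp.

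Both replicates held a region within 100 bp of each of the 12 summits, against 95.1% of all IDR peaks. Among the 1875 strongest regions of each replicate, 8 of the 12 (66.7%, exact Clopper-Pearson 34.9 to 90.1) were matched in both, close to the 69.2% of all IDR peaks. All 12 were among the strongest of replicate 2 and 8 among those of replicate 1, the exceptions being lit-1, lin-18, cam-1 and the mom-1 summit beside the tRNA gene. The IDR list was ranked on both replicates together, so these matches are not independent of it.

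**Figure D3:**
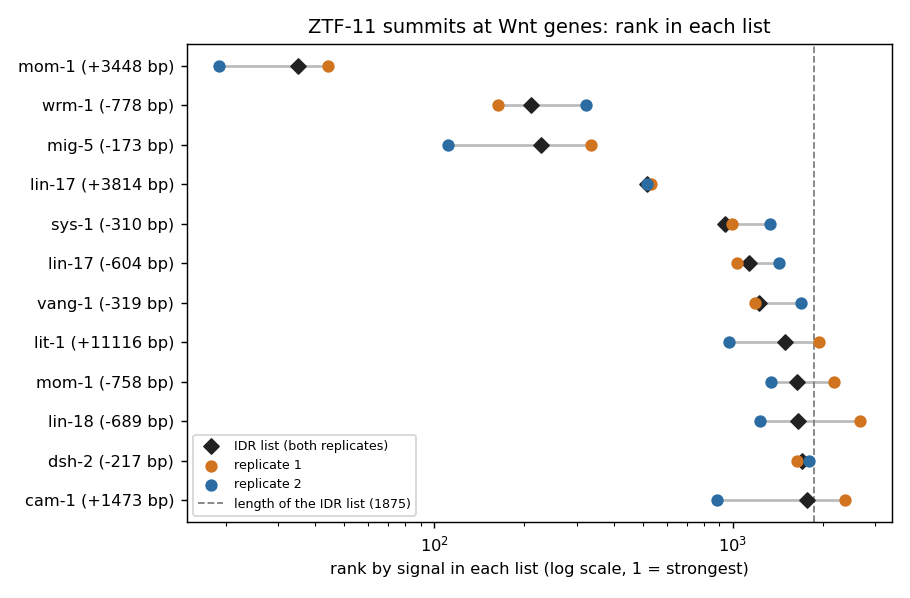
Rank by signal (log axis, 1 is the strongest) of the 12 summits at Wnt genes in the IDR list (diamonds), replicate 1 (orange) and replicate 2 (blue), labelled with the distance from the 5' end. The 4 summits to the right of the dashed line in replicate 1, at rank 1941 to 2671, are those of lit-1, lin-18, cam-1 and the upstream mom-1 site.

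The sequences at the summits had the base composition of ZTF-11 peaks in general. The mean GC content of the 12 windows of 101 bp was 48.6% ± 4.65 (SD), beside 48.9% ± 7.87 for the 1875 IDR peaks and 36.1% ± 6.90 for windows centred on the 19973 coding 5' ends. The 5 motifs were taken over from an earlier report, with earlier results of these data known, and were searched on both strands. Their shares are therefore a description and not an independent finding. CTGCGTCT was in 3 of 12 member windows (25%, exact interval 5.49 to 57.2), at lit-1, dsh-2 and cam-1, against 8.75% of all IDR windows and 0.676% of windows at 5' ends. Within 25 bp of the summit it was in 1 of 12, against 5.23% of IDR windows. In dsh-2 it reads on the opposite strand, as AGACGCAG.

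GAGAGA was also in 3 of 12 windows, at sys-1, lit-1 and the upstream mom-1 site, against 23.8% of IDR windows and 7.34% at 5' ends. The sys-1 window held 4 matches, overlapping ones included, more than any other. At lit-1 the GAGAGA match, read on the other strand, shares 1 base with CTGCGTCT. AAGTT, known as a core of sites of the MYT1 family, was in 1 of 12 windows, the intronic one of lin-17, against 13.2% of IDR windows and 31.1% at 5' ends. TTTGAA or TTCGAA was in 2, at lin-18 and wrm-1, against 21.8% and 30.3%. GGCGGG was in 0 of 12, against 7.73% and 1.87%. Windows at 5' ends are not a like background for words of high or low GC. Their mean GC content was 36.1%, against 48.9% in IDR windows, and motif shares at like GC content were not tested. The windows of the intronic mom-1 site, mig-5, vang-1 and the upstream lin-17 site held none of the 5. A match is a description of the letters and not a site of binding.

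Further genes that act with the pathway were counted by the same rule from a list of 29, of which 28 names were found. A summit was at 8 of the 28, and for 6 of these it was within 1000 bp of the 5' end, beside the same backgrounds of 9.34% and 8.09%. This list was not compared at like gene length. The genes that met the rule only through a summit inside them, hmr-1 and lin-39, are 58913 and 7992 bp long. None of the 8 genes of retromer and endosomal sorting, which recycle Wntless, had a summit. Nor had plr-1, whose product removes Frizzled from the cell surface. Of 5 genes of nuclear cofactors and turnover 4 had summits. The strongest was at cbp-1, a p300 acetyltransferase, with a signal of 478.8 in the pooled list, 289.0 in replicate 1 and 189.5 in replicate 2 (ranks 52, 63 and 37), 892 bp upstream. A weaker cbp-1 summit, of rank 1014, lay 47 bp upstream.

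The Groucho corepressor gene unc-37 had its summit 256 bp upstream (rank 1118), and lin-23, an F-box protein gene, 944 bp upstream (rank 1783, and 2598 in replicate 1). The summit 123 bp upstream of par-5, a 14-3-3 protein gene, ranked 1261 in the IDR list, 888 in replicate 1 and 27938 in replicate 2, and M117.3 began 159 bp from it. In the cadherin complex, which binds HMP-2, the alpha-catenin gene hmp-1 had a summit 851 bp upstream (rank 1572, in an exon of the non-coding RNA gene R13H4.11). The hmp-1 summit ranked 2129 in replicate 1 and 1204 in replicate 2. The cadherin gene hmr-1 had a summit in an intron (rank 1324), 1443 bp upstream of the nearest transcript start. It ranked 1123 in replicate 1 and 2694 in replicate 2. Jac-1 had none. Of 11 genes known as targets of the pathway 2 had summits, the Hox genes mab-5 and lin-39, beside 9.34% of all coding genes. The Hox genes egl-5 and ceh-13 of the same list had none. The mab-5 summit was 967 bp upstream (rank 875), and that of lin-39, of rank 728, was 1771 bp downstream of the outermost 5' end and 56 bp upstream of a second start.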

How the data were processed

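ChIP-seq of GFP-tagged ZTF-11 was analysed from 4 lists of regions on ce11: 1 for each of the 2 replicates, 1 on both pooled, and the IDR list. Which caller, aligner and IDR threshold the authors used is not given in the sources used here. Per the deposited text files, the IDR list was derived from the other 3. Signal values deposited in different lists are not on one scale, and regions were ranked by signal within each list alone. Many peaks shared the maximum of the deposited −log10 q-value column, which was not used for ranking. Summit positions came from the offsets in the authors' lists. The copies on ce10 and the control were not analysed here, and depth is unknown.

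Genes came from Ensembl release 115 (WBcel235) and sequence from RefSeq. Gene 5' ends are the outermost annotated ones; for trans-spliced genes these can lie downstream of transcription starts. Summits of 2 lists were matched within 100 bp. The assignment of summits to genes was tested on simulated data. Members, roles, lists and motifs were chosen with earlier results of these data known, so no test was made. Counts of genes are set beside all coding genes. All members are named, with genes of the second list that had a summit. Alternatives were other distances, peak lists, gene assignments, matching distances and windows. Python 3.11.15, pandas 2.3.3, numpy 2.4.6 and scipy 1.17.1 were used.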

Additional observations from a re-analysis of the deposited data

How the results depend on the processing

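The number of Wnt genes with a summit depended on the distance and on the peak threshold. Within 500 bp of the 5' end 4 members were counted in place of 8 (1275 coding genes, 6.38%), without lin-17, lin-18, mom-1 and wrm-1, and within 2000 bp 11 (10.96% of coding genes), with cam-1, hmp-2 and pop-1 added. With the 937 peaks of highest signal 2 members (6.25%) had one within 1000 bp, near the 4.84% of coding genes (966), and 4 (12.5%) did by the full rule, against 5.45% (1088). From 1 replicate alone the counts were 7 (without replicate 2) to 8 (without replicate 1) within 1000 bp and 9 to 11 by the full rule, against 1543 to 1582 and 1824 to 1834 coding genes. Within 1000 bp, replicate 1 alone added pry-1 and lost lin-18 and mom-1, and replicate 2 alone changed no member. By the full rule, replicate 1 alone added pry-1 and lost cam-1 and lin-18, and replicate 2 alone added fmi-1. With replicate 1 alone lit-1 was still counted, but through another region, as its IDR summit ranked 1941 there. The lit-1 gene is 22414 bp long and its window held 26 pooled regions. With IDR peaks matched in the strongest regions of both replicates 6 members (18.75%) were counted within 1000 bp and 7 (21.9%) by the full rule, against 6.10% and 6.96% of coding genes. The single nearest coding gene of each summit gave 11, adding mig-1 and pop-1 and losing mom-1, against 8.23% of coding genes, and any transcript's 5' end gave 10, against 9.44%. The median rank of the 12 summits, 1177 in the IDR list, was 1101 without replicate 1 and 1110.5 without replicate 2. Of 24 ranks of single summits in 1 replicate, 6 differed by over 1.5 times from the IDR rank. Summits within 50 bp in both replicates were found for 83.3% and within 200 bp for 100%. Of 10 motif shares in other windows 8 stayed within the main interval, and AAGTT and TTTGAA or TTCGAA fell to 0 at 25 bp. CTGCGTCT was in 1 of 12 windows (8.33%) at 25 bp either side, against 5.23% of IDR windows, and GAGAGA likewise in 1, against 12.96%. No paired analysis was possible because there is 1 group.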
